A study of Mus musculus with 25 samples.

Results

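The genes described here are 10 members of the Bcl2 family that govern survival, mitochondrial cell death and mitophagy, taken by name: Bcl2, Bcl2l1, Mcl1, Bbc3, Pmaip1, Hrk, Bid, Bcl2l11, Bnip3 and Bnip3l. Each was read from the array probe sets annotated to that gene alone, 12 probe sets among the 35557 of the table (19938 genes had a probe set of their own), and where a gene had several the brightest over the 25 arrays was used. The cells were primary cardiac myocytes cultured from neonatal mice. TG myocytes came from transgenic mice in which the mlc2v promoter, that of the ventricular myosin light chain, drives overexpression of CHF1/Hey2 in the myocardium, and WT myocytes from wild type mice. CHF1/Hey2 is a basic helix-loop-helix transcriptional repressor. Cultures were kept in serum free medium (5 of WT and 6 of TG, written WT no serum and TG no serum) or were given 20% fetal bovine serum, a hypertrophic stimulus, for 24 h (7 of WT and 7 of TG, written WT serum and TG serum). Each array is an independent culture of the named genotype, and the strain of the mice is not given in the sources used here.

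Proteins of the Bcl2 family set whether the outer mitochondrial membrane stays closed. Bcl2, Bcl-xL (from Bcl2l1) and Mcl1 hold the pore-forming proteins Bax and Bak in check, and BH3-only proteins such as Puma (Bbc3), Noxa (Pmaip1), Harakiri (Hrk), Bid and Bim (Bcl2l11) oppose them. Bnip3 and Nix (Bnip3l) sit in the same membrane and serve as receptors that hand mitochondria to the autophagosome, and Bnip3 is a classical hypoxia-induced gene of the cardiac myocyte.

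Promoter sequences were at hand for 8 of the 10 genes, 13 promoters in all (RefSeq, build GRCm38.p6, the 250 bases before each start). They were searched on both strands for CACGTG and CACGCG, elements known to be bound by repressors of the Hey and Hes families, and for ACGTG, a core of the hypoxia response element, which also lies inside CACGTG. None was at hand for Bnip3l or for Pmaip1, which was lower in TG serum by more than Hrk (-0.47 against -0.22 log2 units). The Bnip3 probe set used has neighbours by number on chromosome 14, as described below. The promoters of Bnip3 and Hrk are shown because, among the 8, these genes stood apart in opposite directions between TG serum and WT serum. Both read 5′ to 3′ towards the start, and capitals mark CACGTG or CACGCG on either strand (the latter reads CGCGTG from the opposite strand). The Bnip3 promoter lies at chr7:138909507-138909756 on the minus strand, and the Hrk promoter at chr5:118169514-118169763 on the plus strand.
Bnip3: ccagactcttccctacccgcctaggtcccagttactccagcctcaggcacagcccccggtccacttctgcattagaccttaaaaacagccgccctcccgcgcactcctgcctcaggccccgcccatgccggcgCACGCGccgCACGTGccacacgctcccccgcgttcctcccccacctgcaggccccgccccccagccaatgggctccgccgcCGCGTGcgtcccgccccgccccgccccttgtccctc
Hrk: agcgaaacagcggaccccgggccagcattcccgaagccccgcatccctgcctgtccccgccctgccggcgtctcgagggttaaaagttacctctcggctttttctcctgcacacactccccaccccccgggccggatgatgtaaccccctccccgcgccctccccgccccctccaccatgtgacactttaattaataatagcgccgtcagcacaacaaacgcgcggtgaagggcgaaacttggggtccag
The Bnip3 window held 1 CACGTG, beginning 108 bases before the start, and 2 CACGCG, beginning 117 and 36 bases before it. No match to these letters lies in the Hrk window. Among the 8 genes CACGTG was present for 2 (Bnip3 and Bbc3) and CACGCG for 4 (Bcl2l1, Bnip3, Bbc3 and Bcl2l11), and ACGTG only as part of CACGTG, for the same 2. By promoter, CACGTG was in 2 of the 13, CACGCG in 5 and ACGTG in 2. Of all 32851 mouse promoters of the same length, 6.02% held CACGTG, 7.62% CACGCG and 16.6% ACGTG. This background was not matched for GC content, which was 72.4% in the Bnip3 window and 63.2% in that of Hrk. The Bbc3 windows that begin at 16310011 and 16310181 overlap, so the 13 are not all separate. A match is a description of the letters, and binding was not measured here.

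The labels were checked first. Hey2 stood 1.58 log2 units higher in TG than in WT without serum (7.81 ± 0.62, SD, n = 6, against 6.23 ± 0.11, n = 5) and 1.81 higher with serum (8.71 ± 0.53 against 6.89 ± 0.25, n = 7 each), with no overlap in either set. Its adjusted p in limma was 0.853 without serum and 0.0097 with serum, so that without serum the transgene itself did not pass the test applied to the 10 genes. The 15 cardiac myocyte markers examined were in the upper part of every array, with mean percentiles of 88.3 for Ryr2 to 99.97 for Actc1. The endothelial, macrophage and fibroblast lists had median percentiles of 56.3, 56.4 and 85.8. The 11 arrays without serum and the 14 with serum stood on different scales (SD of all probe sets 2.10 to 2.14 and 2.54 to 2.60). A separate normalization of these sets cannot be told apart from serum, so TG and WT were compared within each set, and serum was examined only by the rank of a gene within its own array.

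Without serum, no difference between TG and WT myocytes passed the test for any of the 10 genes. The anti-apoptotic genes differed by 0.083 (Bcl2), -0.020 (Bcl2l1) and 0.076 (Mcl1) on the log2 scale. The largest difference was that of Pmaip1, the gene of Noxa, 0.28 lower in TG. In this comparison 0 of 10 genes passed an adjusted p of 0.05 in limma's moderated test with Benjamini-Hochberg adjustment over all probe sets (adjusted p 0.888 to 0.991), where 0% of all probe sets did. At an unadjusted p under 0.05 the count was also 0, where 5.64% of all probe sets passed. The median difference of the 10 genes was -0.0050, beside -0.0083 over all probe sets, with 5 genes above 0 and 5 below (45.3% of all probe sets above 0). Of all probe sets at an unadjusted p under 0.05, 41.0% were higher in TG, and 75.0% when each array was centred on its median. For none of the 10 were TG no serum and WT no serum cultures free of overlap, as they were for 0.402% of all probe sets.

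Pmaip1 in WT no serum was measured at 8.01, 8.13, 8.44, 8.24 and 7.72 log2 units in the 5 cultures. In TG no serum the lowest of 6 was 7.32, the median 7.80 and the highest 8.34. The ranges lie across each other, and 4 of 6 TG cultures were below the WT mean. The 95% confidence interval of the difference, -0.68 to 0.13, is the widest of the 10 genes in this set. Without the 3 arrays lowest in myocyte markers (TG no serum replicates 4 and 5 and WT no serum replicate 2, chosen after seeing the data) the difference was -0.48 (unadjusted p = 0.021 and adjusted p = 0.403 by limma, adjusted p 0.403 to 1 over the alternatives run). In the same set 10 of 12 epicardial and mesothelial markers lay below 0 in TG (median -0.18, 1 at an unadjusted p under 0.05), as did 11 of 13 macrophage markers (median -0.16, 0), and 13 of 15 cardiac myocyte markers lay above 0 (median 0.097, 0). Most markers of fibroblasts (10 of 12), endothelial cells (9 of 12) and proliferating cells (9 of 10) also lay below 0. So did most neuronal and glial (7 of 9) and erythroid markers (5 of 6). Of smooth muscle and pericyte markers 7 of 12 lay above 0, as did 45.3% of all probe sets. The part of any of these cells in the value of Pmaip1 was not tested. Mcl1 had the narrowest interval, -0.027 to 0.18, and lay at 10.27, 10.31, 10.36, 10.27 and 10.39 in WT no serum against a lowest of 10.31, a median of 10.38 and a highest of 10.49 in TG no serum.

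**Figure D1:**
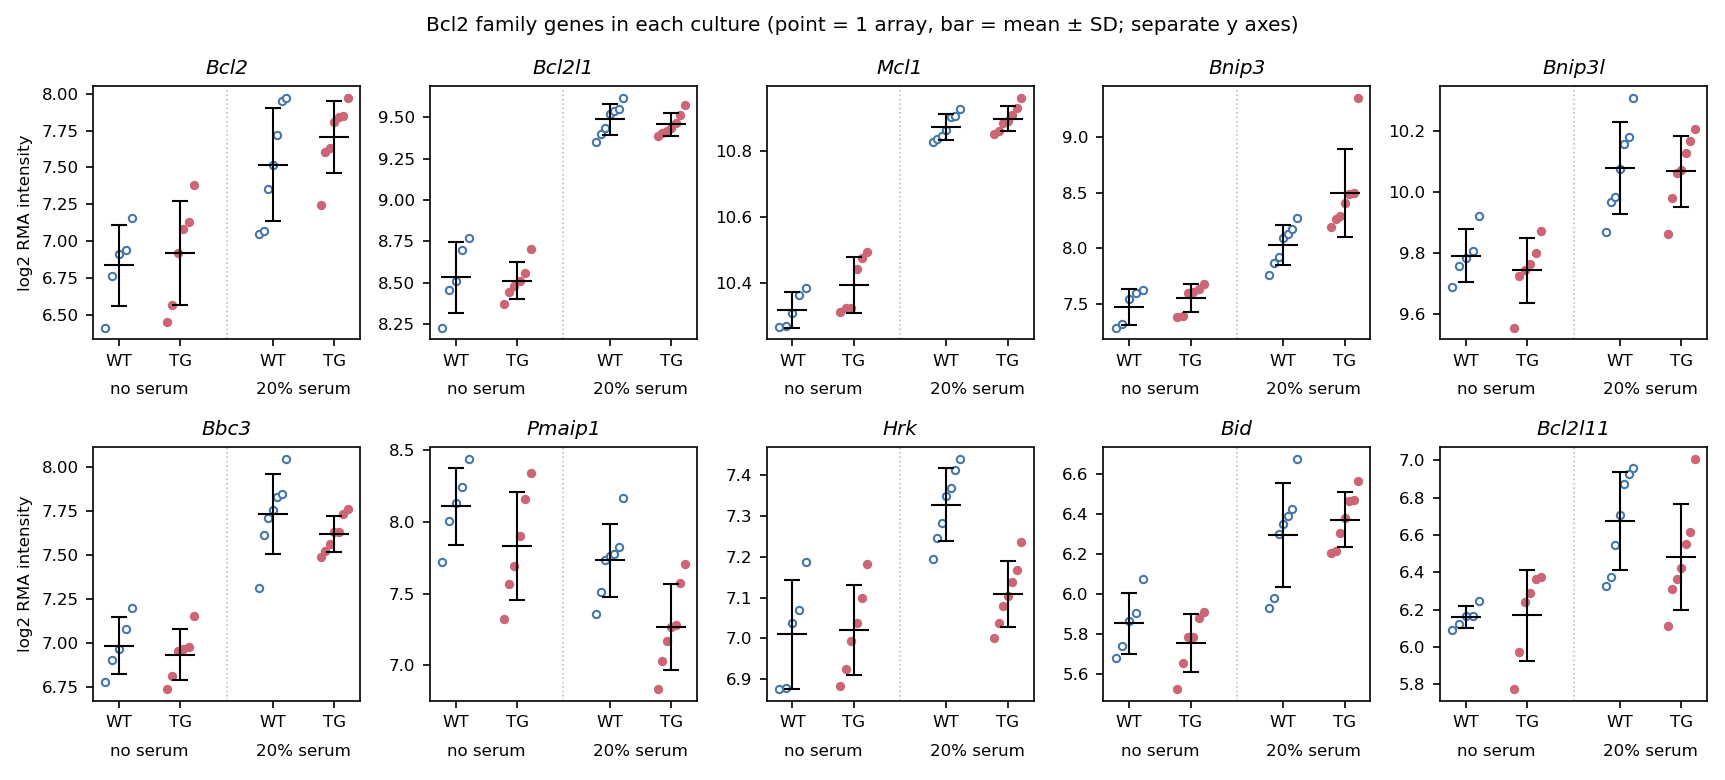
Level of each of the 10 genes (log2 RMA intensity, separate y axes) in every culture, with WT as open and TG as filled points and bars giving mean ± SD. Within the serum set Bnip3 stood higher in TG and Pmaip1 and Hrk lower, and the sets with and without serum are on different scales, so levels are not to be read across the dotted line.

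With serum, 3 genes stood apart from the rest. Bnip3, the mitophagy receptor, was higher in TG serum than in WT serum by 0.47 log2 units (1.38-fold). The BH3-only genes Pmaip1 (Noxa) and Hrk (Harakiri) were lower, by 0.47 and 0.22 log2 units. The other 7 genes, among them the survival genes Bcl2, Bcl2l1 and Mcl1, had differences from -0.19 to 0.19 whose intervals all held 0. None of the 10 passed an adjusted p of 0.05 in limma (adjusted p 0.292 to 0.974), where 0.00844% of all probe sets did. At an unadjusted p under 0.05 there were 3, 1 higher and 2 lower, where 10.7% of all probe sets passed (4.39% higher and 6.31% lower). The share higher in TG among those was 41.0%, and 75.9% when each array was centred on its median, which left the direction of these 3 genes as it was. The median difference was -0.020, beside -0.019 over all probe sets.

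Bnip3 in WT serum ranged from 7.76 through a median of 8.09 to 8.27, and in TG serum from 8.19 through 8.41 to 9.35. All 7 TG cultures were above the WT mean, and 1 of them, replicate 4 at 9.35, lay far above the next at 8.49. The difference was 0.47 (SE 0.15, n = 7 and 7, limma p = 0.0080, adjusted p = 0.338), and the exact two-sided permutation test over the arrays gave p = 0.0017. Without replicate 4 the difference was 0.33 (adjusted p = 0.376 by limma, with 0.090 to 0.634 over the alternatives run). That array also had the highest mean of the cardiac myocyte markers in TG serum, 12.3.

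Pmaip1 in WT serum ranged from 7.36 through a median of 7.76 to 8.16, and in TG serum from 6.84 through 7.27 to 7.70. All 7 TG cultures were below the WT mean, and the ranges overlapped. The difference was -0.47 (SE 0.14, limma p = 0.0045, adjusted p = 0.312, exact permutation p = 0.0087). Noxa binds chiefly Mcl1, and Mcl1 itself was 0.025 higher, with an interval of -0.061 to 0.11.

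Hrk in WT serum ranged from 7.20 through a median of 7.35 to 7.44, and in TG serum from 7.00 through 7.10 to 7.24. Only TG serum replicate 7 exceeded the lowest WT culture. The difference was the smallest of the 3 and had the smallest error, -0.22 (SE 0.054, limma p = 0.0012, adjusted p = 0.292, exact permutation p = 0.0012). Harakiri antagonizes Bcl-xL, and Bcl2l1 differed by -0.031, with an interval of -0.15 to 0.084.

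These 3 genes kept an unadjusted p under 0.05 in each of the 14 fits that left out 1 array. For none of the 10 genes were the TG serum and WT serum cultures free of overlap, as they were for 0.256% of all probe sets. The study itself named Bnip3 from these samples, so its value here is not independent evidence.

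**Figure D2:**
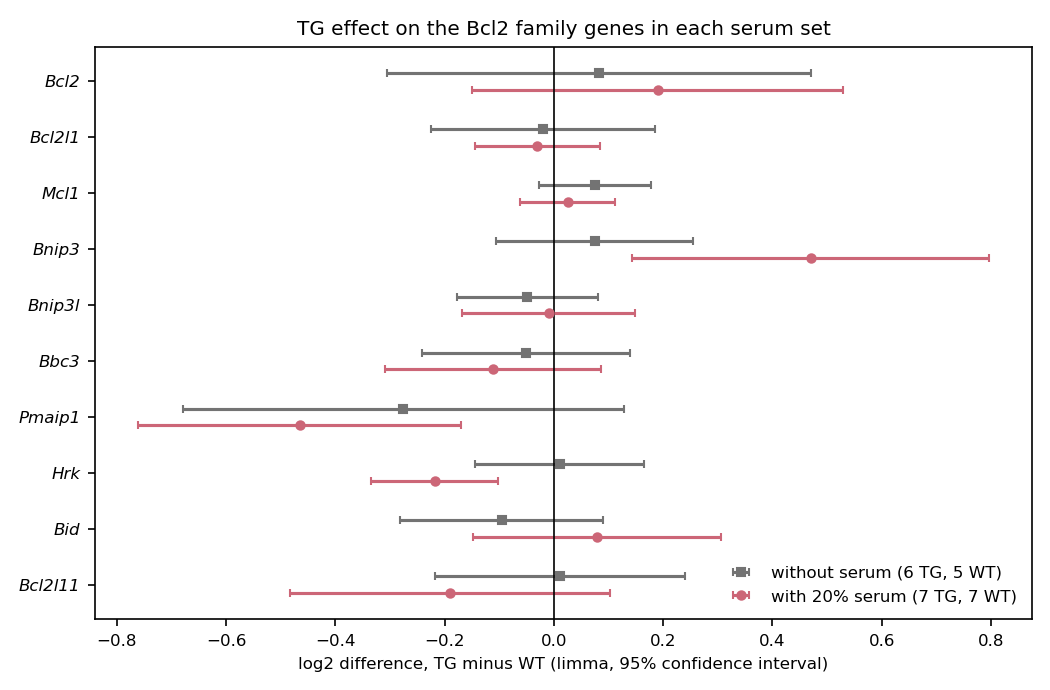
Difference of TG minus WT for each gene on the log2 scale, without serum (grey squares, 6 TG and 5 WT cultures) and with serum (red circles, 7 and 7), with limma's 95% confidence intervals. Only the intervals of Bnip3 (0.14 to 0.80), Pmaip1 (-0.76 to -0.17) and Hrk (-0.33 to -0.10) with serum lie clear of 0.

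Of the other members, Bcl2 was 0.19 higher in TG serum (interval -0.15 to 0.53), with 6 of 7 TG cultures above the WT mean. Its lowest, median and highest values were 7.05, 7.52 and 7.97 in WT serum and 7.24, 7.81 and 7.97 in TG serum. Without WT serum replicates 3 and 4, the cultures with the highest endothelial marker means, the difference was 0.0058, while Bnip3, Pmaip1 and Hrk were at 0.38, -0.44 and -0.23. Both were also lowest of their group in cardiac myocyte markers (-0.59 and -0.53 log2 units from its mean) and Bcl2 (-0.47 and -0.45). Leaving them out thus had to lower the Bcl2 difference, and the part of endothelial cells in it was not tested. TG serum replicate 6, lowest of its own group in both (-0.78 and -0.47), was kept in that fit. Bcl2l11, the gene of Bim, was 0.19 lower (interval -0.48 to 0.10). Its difference was -0.081 without WT serum replicates 3 and 4, the highest of their group in Bcl2l11 itself (0.25 and 0.29 from its mean). Without TG serum replicate 6, the TG culture with the highest endothelial marker mean, the difference was 0.27 for Bcl2 and -0.28 for Bcl2l11 (adjusted p = 0.473 and 0.329 by limma). Bbc3 (Puma) was 0.11 lower (interval -0.31 to 0.086), Bid 0.079 higher (-0.15 to 0.31) and Bnip3l 0.0097 lower (-0.17 to 0.15). When 1 array was left out, Bbc3 ran from -0.18 (without WT serum replicate 2, adjusted p = 0.407 by limma) to -0.059 (without WT serum replicate 3), and Bid from 0.019 (without WT serum replicate 6) to 0.14 (without WT serum replicate 1). The count of genes lower at an unadjusted p under 0.05 was then 2 to 3, with Bcl2l11 added without TG serum replicate 6 and Bbc3 without WT serum replicate 2.

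Cell type markers were examined in the same comparison. With serum all 15 cardiac myocyte markers lay above 0 in TG against WT, where 43.5% of all probe sets did (median difference 0.39, 2 at an unadjusted p under 0.05), and their mean level ranged from 11.1 to 12.3 in TG and 11.0 to 12.0 in WT. All 12 endothelial markers lay below 0 (median -0.27, 3 at an unadjusted p under 0.05, mean level 5.74 to 6.73 in TG and 6.01 to 6.84 in WT). Of 12 epicardial and mesothelial markers 8 lay below 0 (median -0.16, 4 at an unadjusted p under 0.05, mean level 7.23 to 7.61 in TG and 7.30 to 7.81 in WT). Of 13 macrophage markers 9 lay above 0 (median 0.19, 0 at an unadjusted p under 0.05, mean level 6.04 to 6.87 in TG and 5.87 to 6.87 in WT). Most neuronal and glial markers (8 of 9, median -0.044), fibroblast markers (8 of 12, median -0.058), proliferation markers (6 of 10, median -0.039) and erythroid markers (4 of 6, median -0.062) lay below 0. Smooth muscle and pericyte markers lay 6 above and 6 below 0. No marker of these lists passed an adjusted p by limma, and the part of these cells in the values of the 10 genes was not tested. In RNA of whole cultures fewer cells of a type and less RNA per cell cannot be told apart.

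Whether the TG effect differed between the serum sets was asked with an interaction term over all 25 arrays. Hrk had the smallest p of the 10 for such a difference, -0.23 (SE 0.087), with TG and WT at 7.02 and 7.01 without serum and 7.11 and 7.33 with it. Its unadjusted p was 0.015 and its adjusted p 1.00 by limma, and 4.26% of all probe sets had an unadjusted p under 0.05. Bnip3 had an interaction of 0.40 (unadjusted p = 0.053) and Pmaip1 of -0.19 (unadjusted p = 0.423). When 1 array was left out, that of Bnip3 ran from 0.25 (without TG serum replicate 4) to 0.45 and passed an unadjusted p of 0.05 in 8 of 25 fits, and that of Pmaip1 ran from -0.29 (without TG no serum replicate 2) to -0.088 (without TG no serum replicate 4). None of the 10 genes passed the adjusted p, which rounded to 1.00 for each, where 0.00281% of all probe sets passed.

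Serum itself was compared by the percentile rank of each gene among all probe sets of its array. In myocytes of both genotypes Pmaip1 stood lower in the arrays with serum, by 8.03 points in WT and 10.3 in TG, and Bcl2l1, the gene of Bcl-xL, and Bbc3, the gene of Puma, stood higher. In WT 2 of 10 genes were higher and 2 lower at an adjusted p under 0.05 by limma, where 58.0% of all probe sets passed (28.8% higher and 29.2% lower). In TG 4 were higher and 3 lower, where 59.9% passed (29.8% higher and 30.1% lower). A call was thus common in the whole table, and the counts for the 10 genes in WT were under that background. In TG the count of higher genes was above it and that of lower genes near it, and whether they differ from it was not tested. The higher count in TG includes Bnip3 by its brighter probe set, where the dimmer set differed by 0.57 points (adjusted p = 0.735 by limma on ranks). It also includes Bid, whose call was lost without TG no serum replicate 2. What serum did to a gene and what the scale of the set did cannot be told apart.

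Among the survival genes, Bcl2l1 had percentiles of 89.8, 86.5, 88.4, 88.0 and 90.2 in WT no serum, a lowest, median and highest of 87.5, 88.1 and 89.5 in TG no serum, 90.9, 91.8 and 92.2 in WT serum and 90.8, 91.2 and 91.9 in TG serum. Every array with serum was above every array without it. The difference was 2.98 points in WT (SE 0.50, adjusted p = 2.2e-05) and 2.97 in TG (SE 0.47, adjusted p = 1.1e-05) by limma on ranks. Mcl1 had group means between 96.8 and 96.9 and differed by 0.065 points (interval -0.36 to 0.49) in WT and 0.013 (-0.39 to 0.42) in TG. Bcl2 had group means of 71.6 in WT no serum, 72.6 in TG no serum, 74.6 in WT serum and 76.6 in TG serum, and no neighbours in that order differed beyond their spread.

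Among the BH3-only genes, Pmaip1 had percentiles of 84.1, 85.6, 87.8, 86.3 and 81.4 in WT no serum. The lowest, median and highest were 77.4, 81.9 and 87.2 in TG no serum, 73.0, 77.5 and 81.1 in WT serum, and 67.5, 72.1 and 76.4 in TG serum. The order of the means was WT no serum, TG no serum, WT serum and TG serum, and each group overlapped its neighbour in that order. With serum against without, the ranges did not overlap in either genotype (adjusted p = 0.00033 in WT and 8.6e-06 in TG, limma on ranks). With serum Hrk fell by 3.49 points in TG (SE 0.74, adjusted p = 0.00031), with no overlap, and differed by -0.99 in WT (SE 0.78, adjusted p = 0.289). Bbc3 was higher by 3.64 points in WT (SE 1.05, adjusted p = 0.0049) and by 2.90 in TG (SE 0.99, adjusted p = 0.015), with overlapping ranges. Bid, which caspase 8 cleaves to link death receptors to mitochondria, was higher by 2.99 points in TG (SE 1.08, adjusted p = 0.021, but 0.061 without TG no serum replicate 2) and by 1.07 in WT (adjusted p = 0.436). Bcl2l11 differed by 1.64 points in WT (interval -1.25 to 4.54) and -0.54 in TG (-3.29 to 2.21).

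Of the genes without overlap between serum and no serum, 1 was higher and 1 lower in WT, where 17.1% of all probe sets were higher and 18.8% lower without overlap. In TG 2 were higher (Bcl2l1 and Bnip3) and 2 lower (Pmaip1 and Hrk), where the shares were 16.7% and 18.5%. WT and TG comparisons use different cultures but share the difference in scale between sets.

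**Figure D3:**
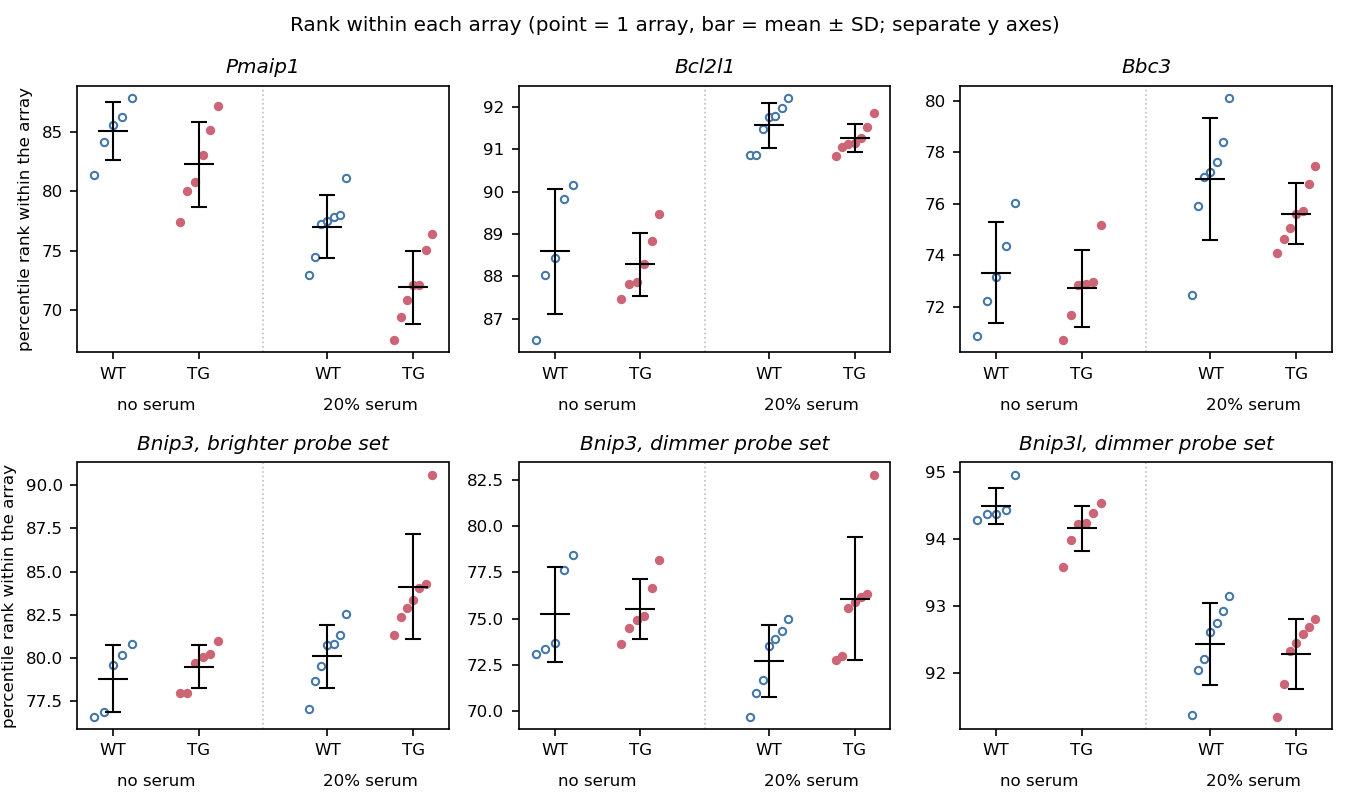
Percentile rank within the array (separate y axes) of Pmaip1, Bcl2l1, Bbc3, both probe sets of Bnip3 and the dimmer of Bnip3l, for WT (open) and TG (filled) cultures, with bars giving mean ± SD. Pmaip1 is lower and Bcl2l1 higher in every array with serum than in any array of the same genotype without it, while the probe sets of Bnip3 differ in their pattern.

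The mitophagy receptors Bnip3 and Bnip3l were each measured by a pair of probe sets, and the pair of Bnip3 did not agree across serum. The brighter Bnip3 probe set (10414269) has neighbours by probe set number named for genes of chromosome 14 (Ang5, BC061237, Ptger2 and Gpr137c), whereas Bnip3 lies on chromosome 7. The dimmer set (10568785) has Mapk1ip1 and Stk32c of chromosome 7 on either side. The brighter Bnip3l set (10394800) likewise has neighbours of chromosome 12, where RefSeq places the pseudogene Bnip3l-ps, and the dimmer set (10421003) stands between Dpysl2 and Ppp2r2a of chromosome 14, the chromosome of Bnip3l. Signal of a near-identical copy cannot be told apart from that of the gene.

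For the TG effect both Bnip3 sets gave the same direction. With serum the dimmer set was at 7.07, 7.40 and 7.56 (lowest, median and highest) in WT and 7.37, 7.64 and 8.31 in TG, again with all 7 TG cultures above the WT mean. The difference was 0.33 (interval 0.058 to 0.60, limma p = 0.021, adjusted p = 0.392, exact permutation p = 0.017). Across serum they parted. The brighter set was higher with serum in TG by 4.63 points (SE 1.17, adjusted p = 0.0017, no overlap) and by 1.28 in WT (adjusted p = 0.389), but the dimmer set differed by 0.57 in TG (adjusted p = 0.735) and -2.52 in WT (adjusted p = 0.133). For Bnip3l the rank of the brighter set fell by 0.93 points in WT (adjusted p = 0.016) and by 0.72 in TG (adjusted p = 0.044, lost in 10 of the 13 fits that left out 1 array). The dimmer set fell by 2.05 in WT (SE 0.33, adjusted p = 1.4e-05) and fell by 1.87 in TG (SE 0.31, adjusted p = 2.1e-05), with no overlap. After group means were taken out, the pairs correlated over the 25 arrays at r = 0.70 for Bnip3 and 0.93 for Bnip3l.

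The 10 genes were next compared with each other, as deviations from the group mean over the 25 arrays. These correlations are descriptions of arrays that share a normalization and a mix of cells, and no p is given. Bcl2 ran against Bcl2l11 (r = -0.74), Bbc3 (-0.66), Bnip3l (-0.61), Pmaip1 (-0.56) and Bid (-0.53). Among the BH3-only genes Bbc3 and Pmaip1 correlated at 0.65 and Pmaip1 and Bcl2l11 at 0.62, while Bid had 0.27 with Bbc3, 0.23 with Pmaip1 and 0.48 with Bcl2l11. Hrk had values from -0.45 (Bid) to -0.06 (Bbc3) with the other BH3-only genes, and -0.64 with Bcl2l1. Bnip3 had no correlation beyond 0.26 in size with any of the other 9 genes over all arrays, although with Bbc3 and Pmaip1 it was 0.91 and 0.82 in the arrays without serum and -0.39 and -0.54 in those with it.

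**Figure D4:**
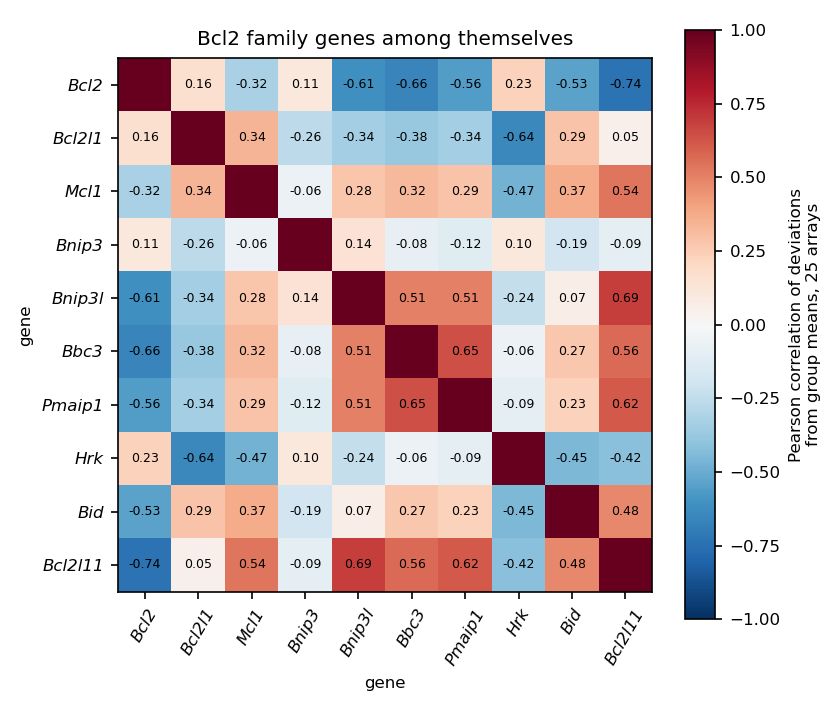
Pearson correlation of the deviations from the group mean between each pair of the 10 genes over 25 arrays, from -1 (blue) to 1 (red). Bcl2 has negative values with Bcl2l11 (-0.74), Bbc3, Bnip3l, Pmaip1 and Bid, which have positive values among themselves.

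The same deviations were set beside the marker lists. Bcl2 followed the mean of the 15 cardiac myocyte markers closely (r = 0.93, with 0.93 and 0.95 in the sets with and without serum) and ran against the endothelial markers (-0.82). Bcl2l11 did the reverse over all arrays (-0.72 and 0.75), but more weakly without serum. Its r with the myocyte markers was -0.91 with serum and -0.52 without, and with the endothelial markers 0.93 and 0.21. Pmaip1 followed the epicardial and mesothelial markers (0.79), and Bid the markers of proliferating cells (0.84) and fibroblasts (0.78). With the smooth muscle and pericyte markers r was 0.62 for Bcl2, -0.55 for Bcl2l11 and -0.69 for Pmaip1. The list of 6 erythroid genes, with group mean levels of 4.99 to 5.08, gave 0.78 for Bcl2 and -0.79 for Bcl2l11. The values of these 2 genes are thus not particular to the cell types named. In 6 arrays the myocyte mean lay more than 0.4 log2 units below that of its group. Without these the correlation with myocyte markers over 19 arrays was 0.81 for Bcl2 and -0.60 for Bcl2l11. That of Bcl2 with Bid was -0.61, with Bcl2l11 -0.54, with Pmaip1 -0.38, with Bbc3 -0.36 and with Bnip3l -0.28. Pmaip1 with the epicardial markers was then 0.72, Bid with proliferation markers 0.85 and Bcl2l11 with endothelial markers 0.49.

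**Figure D5:**
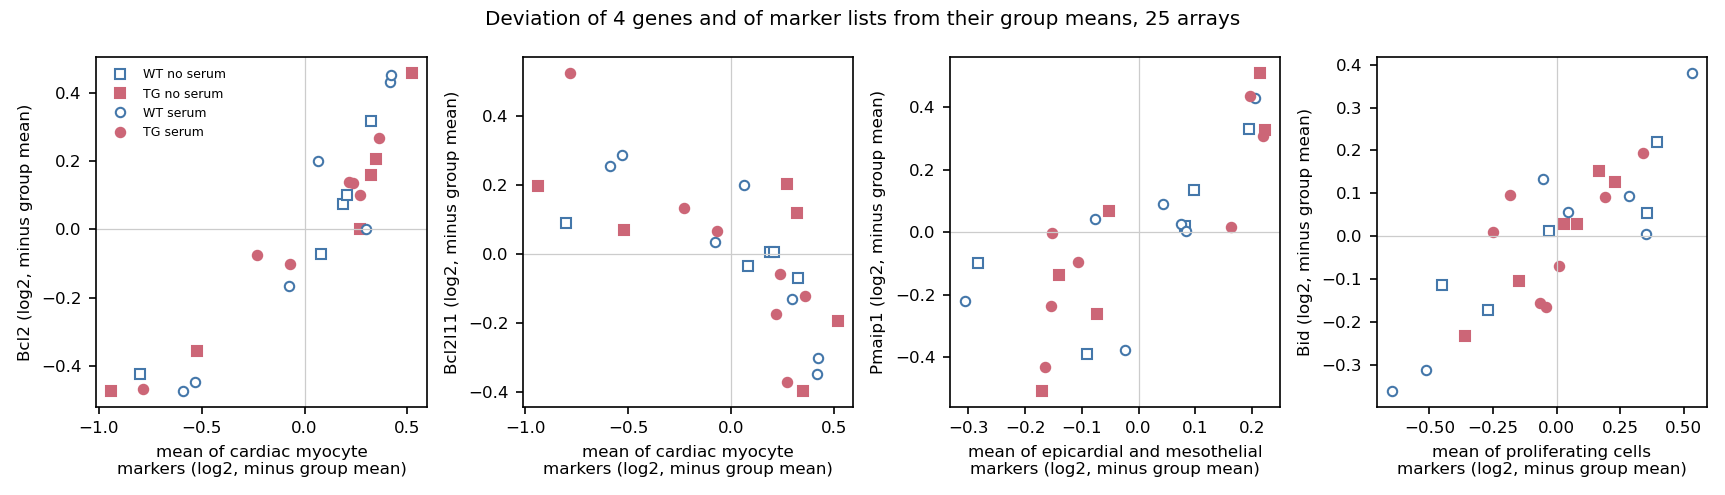
Deviation of Bcl2, Bcl2l11, Pmaip1 and Bid from their group means against that of a marker list mean (both log2), each point an array, squares without and circles with serum, open for WT and filled for TG. The points of Bcl2 rise with the cardiac myocyte markers (r = 0.93) and those of Bcl2l11 fall (r = -0.72), with 6 arrays at the left.

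By the same measure over the 25 arrays, the genes most like Bcl2 were Myl9 (r = 0.97) and Rbm20 (0.96). Myl9 is a myosin light chain outside the cardiac marker list used here, and Rbm20 a regulator of titin splicing. Pmaip1 was closest to Ada (0.93), adenosine deaminase, and Prrg4 (0.90), Bcl2l11 to Rhob (0.90), a small GTPase, and Rpf1 (0.88), and Bid to C330007P06Rik (0.90) and Cenph (0.88), a kinetochore protein. Hrk was closest to Fads6 (0.85), Bcl2l1 to Ptgfrn (0.88), Bnip3l to 4833420G17Rik (0.87), Bbc3 to Fam207a (0.83), Mcl1 to Brox (0.79) and Bnip3 to Nudt17 (0.75).

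The pathway around the 10 genes was read from 9 lists covering 153 further genes measured by a probe set of their own. In TG against WT none of the 153 passed an adjusted p of 0.05 in either set by limma. At an unadjusted p under 0.05 there were 4 higher and 1 lower without serum (2.31% and 3.33% of all probe sets) and 19 higher and 9 lower with serum (4.39% and 6.31% of all probe sets). These shares hold as background for each list below, and centring each array moved the higher share of all such calls with serum from 41.0% to 75.9%. Bax and the p53 target Cdkn1a were not analysed here.

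Of 10 other genes listed with the Bcl2 homologs, Becn1 (Beclin 1) among them, none had an unadjusted p under 0.05 with serum. The pore-forming Bak1 differed by -0.060. Among 4 genes listed beside the BH3-only members (Bad, Bik, Bmf and Bnipl) Bik was 0.29 higher (SE 0.12, unadjusted p = 0.034, adjusted p = 0.430). Of 16 p53 target genes, a class to which Noxa and Puma belong, 15 were below 0 in TG serum against WT serum (median -0.17, beside -0.019 over all probe sets, of which 43.5% were above 0), and 4 of them had an unadjusted p under 0.05. Trp53inp1 was 0.45 lower (SE 0.13, unadjusted p = 0.0030) and Sesn2, a stress-induced sestrin, 0.42 lower (SE 0.13, unadjusted p = 0.0042), each with an adjusted p of 0.310. Without serum 14 of the 16 were below 0 (median -0.059, with 45.3% of all probe sets above 0) and 0 had an unadjusted p under 0.05. The p53 list mean was highest in the culture lowest in myocyte markers in TG no serum (replicate 5), WT no serum (replicate 2) and TG serum (replicate 6). In WT serum it was highest in replicate 7, and the myocyte mean was lowest in replicate 3. The part of the cell mix in these p53 target values was not tested.

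Of 26 genes of the apoptosome, caspases and their inhibitors, 7 were higher and 2 lower with serum at an unadjusted p under 0.05, beside 4.39% and 6.31% of all probe sets. The DNA fragmentation related gene Cidea was 0.35 higher (SE 0.097, adjusted p = 0.310) and Cycs, the gene of cytochrome c, 0.21 higher (SE 0.065, adjusted p = 0.325). The study itself named both from these samples. Of 24 mitophagy and autophagosome genes 5 were higher and 0 lower by the same measure, among them Ulk2, a kinase that starts autophagy, by 0.22 (adjusted p = 0.332) and Pink1, the kinase that marks damaged mitochondria, by 0.18 (adjusted p = 0.386). Of 20 hypoxia response genes 2 were higher and 2 lower, with Egln1, an oxygen sensor, 0.17 higher (adjusted p = 0.416) and Ddit4, an inhibitor of mTORC1 signalling, 0.38 lower (SE 0.083, unadjusted p = 0.00038, adjusted p = 0.188). Among 22 regulators of Bcl2 proteins Vdac1, the mitochondrial outer membrane channel, was 0.17 higher and the chaperone cofactor Bag2 0.14 higher (adjusted p = 0.341 and 0.408). Of 15 FoxO factors and targets Insr and Bcl6 were 0.36 and 0.22 higher (adjusted p = 0.404 and 0.418), and of 18 stress and JNK factors E2f1 was 0.20 lower (adjusted p = 0.385). The study itself also named Vdac1 and Insr from these samples, and it reported autophagy gene sets as increased in TG with serum. The values of those genes and of the autophagosome list here are therefore not independent evidence.

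By rank across serum, 22 of the 153 genes were higher and 44 lower in WT, and 29 higher and 47 lower in TG, at an adjusted p under 0.05 by limma, against the shares of all probe sets given above. The pore-forming Bak1 was higher by 7.35 points in WT (SE 0.80) and 5.19 in TG (SE 0.76). Of 15 FoxO factors and targets, which are known to be active when growth factors are withdrawn, 9 were lower and 1 higher in each genotype, among them Foxo4 (-6.44 points in WT and -5.51 in TG), Foxo3 (-2.72 and -3.22) and Sesn3 (-6.95 and -7.64). Of 16 p53 targets 5 were lower and 1 higher in each genotype, with Sesn1 at -7.53 points in WT and -8.88 in TG. Of 26 apoptosome and caspase genes 6 were higher and 2 lower in WT and 10 higher and 2 lower in TG, led by Casp12 (17.7 and 19.7 points). Casp12 was dim, with a mean log2 value of 4.35, under the filter level of 5 and under the median of every array. Its points are therefore not to be compared in size with those of bright genes. Of 24 mitophagy genes 2 were higher and 8 lower in WT and 4 higher and 10 lower in TG, with Pink1 at -5.30 and -4.19 and Atg5 at 3.86 and 4.42 points.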

How the data were processed

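RNA of 25 independent myocyte cultures was hybridised to Affymetrix Mouse Gene ST arrays, 1 array per culture. The authors normalized the raw arrays by Robust Multichip Analysis in Affymetrix Expression Console 1.1, per the labels and the study's methods, and the deposited table holds log2 intensities of 35557 probe sets, of which every per-sample column was used. Whether the arrays with and without serum were normalized together is not given in the sources used here. Arrays have no counting depth, so their number limits the precision. In the platform annotation 21789 probe sets name 1 gene, 1621 name several and 12147 are unnamed here, and only the first were used for named genes.

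TG and WT were compared within each serum set by lmFit and eBayes of limma 3.58.1 in R 4.3.3, the difference of the TG effects with 1 fit over 25 arrays, and serum with limma on percentile ranks within each array. Each fit covered the whole table, Benjamini-Hochberg adjustment ran over all of its probe sets, and calls were made under 0.05. Exact two-sided permutation tests over arrays were run for single genes in TG against WT. Alternatives tried were median centring, a second quantile normalization, a filter at a mean log2 value of 5, weights per array, a trended prior, other choices of probe set, the culture number as a block, and leaving out arrays. The fits were tested on simulated data. Named were the 10 genes, Hey2, for each list the genes with the smallest p per comparison (up to 4 that passed, otherwise 2) and the genes most correlated with each member. Bak1 in TG against WT with serum was named outside this rule, after its value was seen. The 10 genes and all lists were chosen with earlier results of these data known.

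The culture numbers of the labels are shared between groups, but same-numbered cultures did not deviate together (r of -0.45 to 0.19 over pairs), so the label numbers were not used as pairs. Promoters were taken from RefSeq sequences of GRCm38.p6 and searched by exact match. The build of the array annotation is not given in the sources used here.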

Additional observations from a re-analysis of the deposited data

Results flagged for a closer look

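A single value stood apart among the 40 groups of arrays examined (10 genes in 4 groups), where chance would mark about 1 in 20 groups. Bnip3 in TG serum replicate 4 was at 9.35 log2 units, and its gap to the nearest culture, at 8.49, was 0.737 of the range of the group. The dimmer Bnip3 probe set was also highest in that culture, at 8.31 log2 units.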

How the results depend on the processing

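In TG against WT and in the interaction, 0 of 10 genes passed the adjusted p in each of the alternatives and in each fit that left out 1 array. The 3 genes with an unadjusted p under 0.05 with serum kept their direction and that p in each of the 12 alternatives. Centring each array on its median moved the median of all probe sets by less than 0.1 log2 units and turned the sign of Bcl2l1 without serum (0.010), with serum (0.018) and in the interaction (0.0082) and of Bnip3l with serum (0.040). Bnip3l with serum was also 0.036 without WT serum replicates 3 and 4. Without TG no serum replicates 4 and 5 and WT no serum replicate 2, Bcl2l11 without serum was -0.034, Hrk 0.085, and 1 gene (Pmaip1) was lower at an unadjusted p under 0.05. In the interaction 1 gene (Bnip3) was higher at an unadjusted p under 0.05 with array weights, with centring, with probe sets of 1 gene only and with the mean of the probe sets of a gene.

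Same-numbered cultures did not deviate together. The study's own numbering of the cultures without serum differs from that of the labels, so the pairs across serum may be mismatched and a pairing was not tested by any other numbering. With them as a replicate block, Hrk without serum was -0.022, Mcl1 by rank in TG -0.011, and in WT by rank 1 gene was higher and 1 lower (Bbc3 and Bnip3l lost their call). In TG by rank Bnip3l lost its call under the block (adjusted p = 0.242 by limma). By rank among 1 probe set per gene Mcl1 was -0.0059 in WT and -0.093 in TG. Bnip3 by rank in WT was -0.62 with the mean of its probe sets and -2.52 with the dimmer set alone. In TG its call was lost with each (2.60 and 0.57 points).

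When 1 array was left out, the differences without serum ran from -0.023 to 0.18 for Bcl2, -0.096 to 0.039 for Bcl2l1, -0.10 to 0.0027 for Bbc3, -0.023 to 0.055 for Hrk and -0.030 to 0.090 for Bcl2l11, and the genes lower at an unadjusted p under 0.05 numbered 0 to 1. With serum Bnip3l ran from -0.045 to 0.029. In the interaction Bcl2l1 ran from -0.069 to 0.066, and the genes higher at an unadjusted p under 0.05 numbered 0 to 1. By rank in TG, Mcl1 ran from -0.024 to 0.063 and Bcl2l11 from -1.45 to 0.052 points, and Bcl2 gained a call without TG no serum replicate 2 (5.02 points) and without TG serum replicate 6. The cause of these changes was not tested.

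Over all probe sets, 1 fit to the 25 arrays in place of a fit per set moved the adjusted calls of TG against WT with serum from 3 to 141 (unadjusted p under 0.05, 3803 to 5214), and the unadjusted ones without serum from 2006 to 947. The adjusted calls of the interaction moved from 1 to 6 with array weights and with centring, and centring moved the share higher among its unadjusted calls from 39.4% to 54.2%.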
